A study of Mus musculus with 6 samples.

Results

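Genes that mark cholangiocytes and the ductular reaction were examined in livers of mice with an induced deletion in *Spns1*. The set holds 8 of the 54532 genes listed in the deposited table, *Krt7*, *Krt19*, *Krt8*, *Krt18*, *Krt23*, *Sox9*, *Epcam* and *Prom1*, taken from the table by symbol. RNA was sequenced from the livers of 3 control and 3 g*Spns1*-cKO mice, 1 poly-A selected library per mouse. The g*Spns1*-cKO mice carried *Spns1* fl/fl alleles and the tamoxifen-dependent Rosa26Cre-ERT2, a whole-body system in which tamoxifen given after birth deletes exon 3 of *Spns1* and which is not restricted to hepatocytes or cholangiocytes. Deletion in single cell types was not measured in these libraries. The methods describe the controls as *Spns1* fl/fl littermates without Cre, whereas the labels call them wild type. All mice were on the C57BL/6 background, and the age and sex of the sequenced mice are not given in the sources used here.

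Cholangiocytes are the epithelial cells that line the bile ducts and modify bile, and they carry the keratin pair KRT7 and KRT19 in addition to the KRT8 and KRT18 filaments that hepatocytes also have. In a ductular reaction, which accompanies many forms of liver injury, cells with biliary markers expand or appear at the edge of the portal tracts. *Sox9* encodes a transcription factor of the biliary lineage, and *Epcam* and *Prom1* encode surface proteins used to isolate biliary and progenitor-like cells.

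Libraries held between 30350002 and 35295611 counts, and TMM scaling factors ran from 0.8342 to 0.8729 in control and from 1.157 to 1.177 in g*Spns1*-cKO libraries. Levels are given as CPM, counts scaled to a common TMM-adjusted library size (edgeR's cpm), and a floor of 3 counts was between 0.0763 and 0.119 CPM. The targeted gene *Spns1* had 1008, 1562 and 875 counts in control and 642, 1175 and 698 in g*Spns1*-cKO livers. Its log2 fold change was -0.87 ± 0.25 (SE, adjusted p = 0.03, edgeR). Counts are per gene and the deletion removes a single exon, so this measures the transcript as a whole. The *Spns1* call was lost without control replicate 2 (-0.68, adjusted p = 0.0785), without g*Spns1*-cKO replicate 1 (-0.74, adjusted p = 0.091) and without g*Spns1*-cKO replicate 3 (-0.74, adjusted p = 0.083). It held without control replicate 1 (-0.97, adjusted p = 0.0489, edgeR), control replicate 3 (-0.98, 0.0435) and g*Spns1*-cKO replicate 2 (-1.18, 0.000661).

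The promoters of 4 members are shown because they pair members with large differences, *Krt7* and *Epcam*, with the keratins that did not pass the test, *Krt8* and *Krt18*. Each is the 250 bases before the RefSeq start on GRCm38.p6, written 5′ to 3′ on the strand of the gene. Capitals mark matches, on either strand, to the GC box GGGCGG and to TGGGAA, the core of the site for RBPJ, the DNA-binding partner of Notch.
Krt7 promoter, chr15:101412153-101412402, plus strand: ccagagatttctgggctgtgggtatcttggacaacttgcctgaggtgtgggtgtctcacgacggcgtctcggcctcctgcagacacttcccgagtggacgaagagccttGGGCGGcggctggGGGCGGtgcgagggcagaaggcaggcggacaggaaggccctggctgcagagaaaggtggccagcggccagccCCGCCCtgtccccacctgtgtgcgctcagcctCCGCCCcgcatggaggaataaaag
Krt8 promoter, chr15:102004343-102004592, minus strand: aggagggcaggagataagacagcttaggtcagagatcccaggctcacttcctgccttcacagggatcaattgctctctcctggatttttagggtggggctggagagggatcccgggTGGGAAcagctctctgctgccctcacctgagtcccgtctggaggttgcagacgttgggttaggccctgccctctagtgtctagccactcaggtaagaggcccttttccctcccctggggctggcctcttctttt
Krt18 promoter, chr15:102027966-102028215, plus strand: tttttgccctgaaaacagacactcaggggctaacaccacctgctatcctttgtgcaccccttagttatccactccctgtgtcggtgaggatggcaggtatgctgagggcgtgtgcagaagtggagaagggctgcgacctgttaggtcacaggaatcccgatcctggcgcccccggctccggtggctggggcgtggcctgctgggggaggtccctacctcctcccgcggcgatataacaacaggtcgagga
Epcam promoter, chr17:87635729-87635978, plus strand: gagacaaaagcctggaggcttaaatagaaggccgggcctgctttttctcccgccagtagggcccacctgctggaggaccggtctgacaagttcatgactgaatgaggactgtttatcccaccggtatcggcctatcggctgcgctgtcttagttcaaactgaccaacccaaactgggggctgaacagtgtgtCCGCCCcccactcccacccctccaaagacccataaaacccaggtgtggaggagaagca

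The *Krt7* window held 4 GC boxes, at -141, -128, -56 and -24 from the start, and the *Epcam* window held 1, at -58. The *Krt8* window held 1 match to TGGGAA, at -134, and the *Krt18* window held none of the 5 motifs searched, which also included TATAAA, the TEAD core GGAATG and the AP-1 site TGANTCA. Of 32851 RefSeq promoter windows of the same length, 32.7% held a GC box, 21.6% held TGGGAA, 12.4% held TATAAA, 12.6% held GGAATG and 6.75% held TGANTCA. Such a match is a description of the letters in the window. *Krt23* and both RefSeq starts of *Prom1* were also searched. The *Krt23* window held none of the 5 motifs. In *Prom1*, 1 window held a GC box at -62, TGGGAA at -116 and TGANTCA at -88, and the other TGANTCA at -189. *Krt19* and *Sox9* had no entry among the RefSeq promoters used, so they were not searched.

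Of the 8 members, 6 were higher in g*Spns1*-cKO than in control livers and none was lower at an adjusted p under 0.05 in edgeR's quasi-likelihood test. The rise was 3.12-fold for *Sox9*, 4.09-fold for *Krt7*, 4.33-fold for *Krt23*, 4.87-fold for *Krt19*, 6.93-fold for *Prom1* and 8.62-fold for *Epcam*. Across the 15449 genes tested, 21.3% were called higher and 20.5% lower, against 75% of the members called higher. The members were chosen with earlier results of these data known, so comparisons of them with all genes are descriptions. DESeq2 and limma-voom also called 0 members lower, as did an unadjusted p under 0.05 in edgeR. In the same 6 members every g*Spns1*-cKO library lay above every control library, which held for 27.1% of all genes tested. The median log2 fold change of the members was 2.07, beside 0.0138 over all genes tested, whose quartiles were -0.371 and 0.531. *Krt8* and *Krt18* did not pass the test. All 8 members passed the filter on low counts. In whole liver, more cells of a type and more RNA per cell cannot be told apart.

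**Figure D1:**
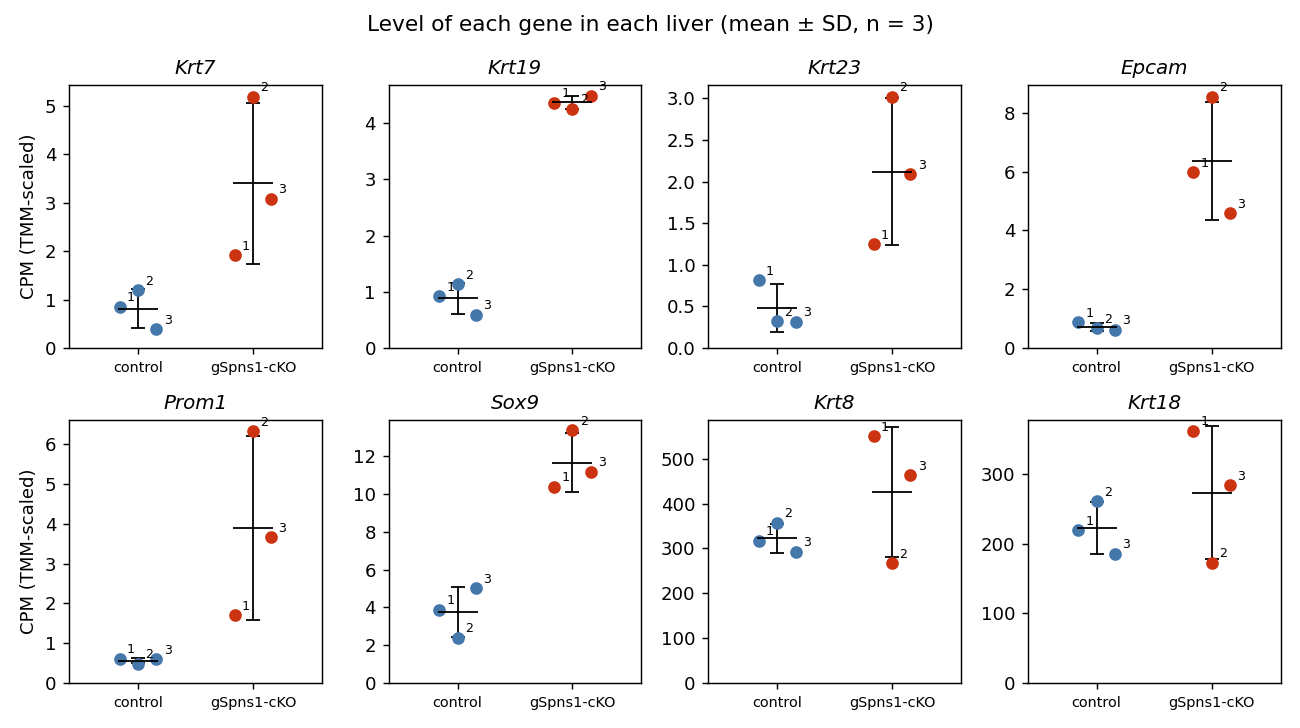
Level of each member in each library, in CPM on linear axes that start at 0, for 3 control (blue) and 3 g*Spns1*-cKO (red) livers, with points numbered by replicate and bars for the mean ± SD. In 6 of the 8 panels the g*Spns1*-cKO livers lie above all control livers, and in *Krt8* and *Krt18* the groups overlap.

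Among the keratins, *Krt19* (chr11:100140810-100148665 on GRCm38, minus strand), the type I keratin most widely used to stain bile ducts, had 26, 35 and 15 counts in control and 157, 163 and 176 in g*Spns1*-cKO livers. Its level was 0.885 ± 0.274 CPM in control and 4.36 ± 0.114 CPM in g*Spns1*-cKO livers (SD, n = 3), and the log2 fold change was 2.29 ± 0.27 (SE, adjusted p = 0.000152, edgeR). The 3 g*Spns1*-cKO livers were nearly level, with the highest 1.05 times the lowest, and none overlapped with control.

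*Krt7* (chr15:101411043-101430313, plus strand), the type II keratin that pairs with KRT19 in the duct epithelium, had 24, 37 and 10 counts in control and 69, 199 and 121 in g*Spns1*-cKO livers. The lowest g*Spns1*-cKO liver held 1.92 CPM and the highest control liver 1.2 CPM. The log2 fold change was 2.03 ± 0.46 (SE, adjusted p = 0.00656, edgeR), with a mean of 0.817 ± 0.404 CPM in control and 3.39 ± 1.66 CPM in g*Spns1*-cKO livers (SD, n = 3). Its spread was wide in both groups, and the groups did not overlap.

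*Krt23* (chr11:99477974-99493137, minus strand), a type I keratin known to appear in injured liver, had 23, 10 and 8 counts in control and 45, 116 and 82 in g*Spns1*-cKO livers. The log2 fold change was 2.12 ± 0.47 (SE, adjusted p = 0.00499, edgeR), from 0.486 ± 0.287 to 2.12 ± 0.887 CPM (SD, n = 3). The groups did not overlap, although control replicate 1, at 0.818 CPM, lay nearest to g*Spns1*-cKO replicate 1, at 1.25 CPM.

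*Krt8* (chr15:101996698-102004482, minus strand) and *Krt18* (chr15:102028180-102032027, plus strand), the filament pair shared by hepatocytes and cholangiocytes, lie 23.7 kb apart with no other listed gene between them. *Krt8* stood at 317, 357 and 293 CPM in control and at 550, 267 and 464 CPM in g*Spns1*-cKO livers. *Krt18* stood at 220, 261 and 186 CPM in control and at 363, 173 and 284 CPM in g*Spns1*-cKO livers. For both genes, g*Spns1*-cKO replicates 1 and 3 lay above all control livers and replicate 2 below them.

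The log2 fold change of *Krt8* was 0.40 ± 0.24 (SE, adjusted p = 0.203, edgeR), with a 95% interval of -0.13 to 0.94, which reaches a 1.92-fold difference. For *Krt18* it was 0.30 ± 0.26 (SE, adjusted p = 0.387, edgeR), with a 95% interval of -0.29 to 0.89, which reaches a 1.85-fold difference. These calls rested on g*Spns1*-cKO replicate 2. Without it all 8 members were called higher, *Krt8* at 0.65 (adjusted p = 0.00806) and *Krt18* at 0.54 (adjusted p = 0.0312). They also passed when libraries were scaled by size alone, at 0.84 (adjusted p = 0.0151) and 0.73 (adjusted p = 0.0423), a scaling that moved the median of all genes to 0.457. With a filter of at least 1 count in any library, *Krt8* passed (0.40, adjusted p = 0.0322).

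*Sox9* (chr11:112782224-112787760, plus strand) had 109, 74 and 127 counts in control and 375, 514 and 442 in g*Spns1*-cKO livers. Its level rose from 3.77 ± 1.31 to 11.7 ± 1.54 CPM (SD, n = 3), and its log2 fold change was 1.64 ± 0.24 (SE, adjusted p = 0.000615, edgeR). The g*Spns1*-cKO livers stood between 10.4 and 13.4 CPM and the control livers between 2.4 and 5.02 CPM.

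*Epcam* (chr17:87635979-87651106, plus strand), an adhesion molecule of epithelial cells that adult hepatocytes largely lack, had 25, 21 and 16 counts in control and 215, 328 and 180 in g*Spns1*-cKO livers. The level rose from 0.734 ± 0.136 to 6.37 ± 2.01 CPM (SD, n = 3), and the log2 fold change of 3.11 ± 0.30 (SE, adjusted p = 4.82e-05, edgeR) was the highest of the 8 members. The control livers lay close together, with the highest 1.41 times the lowest.

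*Prom1* (chr5:43993620-44102032, minus strand) encodes the membrane protein also called CD133. It had 17, 15 and 15 counts in control and 61, 243 and 144 in g*Spns1*-cKO livers. The log2 fold change was 2.79 ± 0.48 (SE, adjusted p = 0.00163, edgeR). It had the widest spread among g*Spns1*-cKO livers of any member, with the highest 3.74 times the lowest, whereas control livers stood between 0.487 and 0.605 CPM.

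The members' exons overlap other genes in 3 cases, and whether counting used strand is not given in the sources used here. *Krt7* shares 77 bases with the antisense *Gm671*, *Krt8* shares 101 bases with *Gm36026* and *Prom1* shares 424 bases with the antisense *Gm16401*. These neighbours held at most 7 counts in any library. The pseudogene *Krt8-ps*, which could take or give reads of *Krt8*, held between 2 and 19 counts.

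Compared per kilobase of the gene length in the deposited table, *Krt8* and *Krt18* stood far above the other members in both groups. That length ran from 1437 bases for *Krt18* to 7175 for *Prom1*, with 7049 for *Krt7* and 1855 for *Krt19*. The order of the less abundant members depends on these lengths. *Krt8* was at 165 ± 16.6 CPM per kb in control and 218 ± 74 CPM per kb in g*Spns1*-cKO livers (SD, n = 3), and *Krt18* at 155 ± 25.8 and 190 ± 66.2 CPM per kb, with overlapping ranges. In control livers *Sox9* followed at 0.911 ± 0.317 CPM per kb, then *Krt19* at 0.477 ± 0.148, *Epcam* at 0.36 ± 0.0668, *Krt23* at 0.311 ± 0.184, *Krt7* at 0.116 ± 0.0574 and *Prom1* at 0.0783 ± 0.00902 CPM per kb. From *Sox9* to *Krt23* the ranges of neighbours overlapped, and so did those of *Krt7* and *Prom1*.

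In g*Spns1*-cKO livers *Epcam* came next after the abundant pair, at 3.12 ± 0.987 CPM per kb (SD, n = 3), and its range overlapped with that of *Sox9*, at 2.83 ± 0.371. *Krt19* followed at 2.35 ± 0.0617 and *Krt23* at 1.35 ± 0.567 CPM per kb, neither with a range that met that of its upper neighbour. *Prom1* at 0.543 ± 0.324 and *Krt7* at 0.482 ± 0.235 CPM per kb closed the order, and the ranges of *Krt23*, *Prom1* and *Krt7* overlapped from neighbour to neighbour.

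Keratins assemble as pairs of a type I and a type II chain, so the ratio within a pair was computed in each library from levels per kilobase. The ratio of *Krt8* to *Krt18* was 1.06, 1.01 and 1.15 in control and 1.11, 1.13 and 1.2 in g*Spns1*-cKO livers. The log2 difference was 0.10 (p = 0.3, adjusted p = 0.4, two-sided exact permutation test). Their levels per kilobase thus stayed close to a ratio of 1 in every liver, including g*Spns1*-cKO replicate 2, where both were low.

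The ratio of *Krt7* to *Krt19* was 0.243, 0.278 and 0.175 in control and 0.116, 0.321 and 0.181 in g*Spns1*-cKO livers. The log2 difference was -0.27 (p = 0.7, adjusted p = 0.7, two-sided exact permutation test). Per kilobase of the deposited gene length, *Krt19* was thus above *Krt7* in all 6 livers. Those lengths are 7049 bases for *Krt7* and 1855 for *Krt19*, and the size of the ratio depends on them. In counts *Krt7* was the higher in control replicate 2 (37 against 35) and g*Spns1*-cKO replicate 2 (199 against 163). In the other livers *Krt7* had fewer counts than *Krt19*. The ratio of *Krt19* to *Krt18* ranged from 0.00246 to 0.00338 in control and from 0.00932 to 0.019 in g*Spns1*-cKO livers. The log2 difference was 2.11 (p = 0.1, adjusted p = 0.2, exact permutation test). For *Krt7* to *Krt8* the log2 difference was 1.73 (p = 0.1, adjusted p = 0.2, exact permutation test). These last 2 pairs did not overlap between groups, and 0.1 is the smallest p that 3 against 3 can give in the 4 tests made.

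Of the 45 other keratin genes in the table, 32 had no count in any library and 1, *Krt10*, was tested. *Krt10* had 83, 43 and 55 counts in control and 80, 73 and 85 in g*Spns1*-cKO livers, and its log2 fold change was -0.05 (adjusted p = 0.908, edgeR). *Krt5* had 0, 0 and 2 counts and *Krt14* had 0, 2 and 3 counts in g*Spns1*-cKO livers, and both were without a count in control livers. *Krt4* had 6, 11 and 3 counts in control livers and 0 in each g*Spns1*-cKO liver and was too low to be tested. *Krt4*, *Krt5* and *Krt14* were chosen after their values were seen.

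Other genes of the biliary epithelium were grouped in 3 lists, transcription factors, surface and secreted proteins, and transport and cilia. Together these held 41 genes, of which 37 were tested, 28 were higher (75.7%), 3 were lower and 6 did not pass. Of all genes tested 21.3% were called higher and 20.5% lower, the shares to set beside each of these lists. Their median log2 fold change was 2.13, beside 0.0138 over all genes tested. The lists were chosen with earlier results of these data known.

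**Figure D2:**
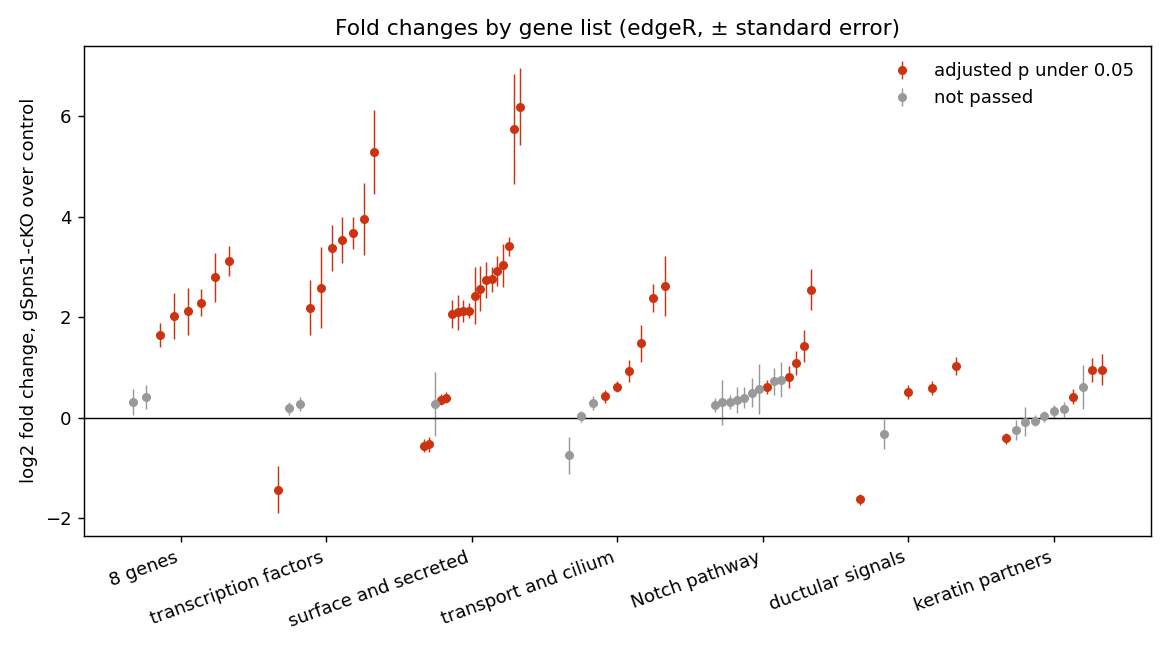
Log2 fold change of g*Spns1*-cKO over control for each tested gene of the members and 6 related lists, 1 point per gene with its standard error, in red for genes past an adjusted p of 0.05 in edgeR and in grey for the others. The 3 biliary lists lie mostly above 0, with 28 of 37 tested genes called higher (75.7%, against 21.3% of all genes tested). The keratin partners lie around 0 with a median of 0.12. The highest points of the transcription factors and surface proteins are genes with few control counts, whose fitted size depends on the prior count.

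Of the 10 transcription factors, all tested, 7 rose, 1 fell and 2 did not pass. *Glis3*, a factor needed for normal ducts and tubules, had 12, 9 and 6 counts in control and 150, 184 and 132 in g*Spns1*-cKO livers, and its log2 fold change was 3.67 ± 0.32 (SE, adjusted p = 2.72e-05, edgeR). *Ehf*, an epithelial ETS factor, had 6, 5 and 15 against 97, 197 and 124 counts, and its log2 fold change was 3.53 ± 0.46 (SE, adjusted p = 0.000301). *Sox4*, which acts with *Sox9* in duct formation, had 3, 11 and 3 against 63, 99 and 76 counts, and its log2 fold change was 3.37 ± 0.46 (SE, adjusted p = 0.000362). The groups did not overlap for any of these 3 factors. Without control replicate 2 *Sox4* was at 4.17, and without control replicate 3 *Ehf* was at 4.25.

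*Foxj1*, the factor of motile cilia, had 1, 0 and 0 counts in control and 22, 29 and 18 in g*Spns1*-cKO livers (adjusted p = 0.000816, edgeR). *Grhl2*, a regulator of epithelial junctions, had 2, 0 and 2 against 20, 44 and 27 counts (adjusted p = 0.00175). For both no fold is given, because every control library was under 3 counts. *Elf3* had 6, 23 and 3 against 74, 65 and 53 counts, with a log2 fold change of 2.19 ± 0.54 (SE, adjusted p = 0.00903), which was 3.3 without control replicate 2. *Elf3* shares 162 exon bases with the antisense *Gm26642*, which held between 23 and 40 counts.

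*Klf5* had 0, 5 and 3 counts in control and 12, 40 and 15 in g*Spns1*-cKO livers. Its log2 fold change was 2.59 ± 0.80 (SE, adjusted p = 0.0252, edgeR), 3.28 without control replicate 2 and 1.88 without g*Spns1*-cKO replicate 2. This call was lost without control replicate 1 (adjusted p = 0.0659), control replicate 3 (0.067) or g*Spns1*-cKO replicate 2 (0.113). *Onecut1*, a hepatocyte and biliary factor also called HNF6, fell, with 155, 330 and 72 counts in control and 59, 107 and 102 in g*Spns1*-cKO livers (log2 fold change -1.44 ± 0.47, SE, adjusted p = 0.0434). The fall in *Onecut1* passed the test without control replicate 3 but not without any other single library (adjusted p between 0.0774 and 0.13), and it was -0.84 without control replicate 2. It also did not pass with scaling by library size (adjusted p = 0.113) or by the upper quartile (adjusted p = 0.0635). *Onecut2*, a factor related to *Onecut1*, did not pass and was at 0.27 (adjusted p = 0.153).

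Of the 20 surface, adhesion and secreted proteins, 18 were tested, 15 rose, 2 fell and 1 did not pass. *Cldn4*, a tight junction claudin, had 0, 1 and 0 counts in control and 27, 48 and 55 in g*Spns1*-cKO livers (adjusted p = 0.000198, edgeR). *Mmp7*, a matrix metalloproteinase made by injured duct epithelium, had 2, 8 and 0 against 115, 509 and 124 counts. The log2 fold change of *Mmp7* was 5.75 ± 1.09 (SE, adjusted p = 0.00952), 7.31 without control replicate 2 and 4.72 without g*Spns1*-cKO replicate 2, and its size depends on the few control counts.

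*Tspan8*, a tetraspanin of epithelial surfaces, had 28, 34 and 24 counts in control and 413, 441 and 374 in g*Spns1*-cKO livers (log2 fold change 3.41 ± 0.19, SE, adjusted p = 2.26e-06). *Cldn7*, another claudin, had 6, 6 and 12 against 73, 123 and 76 counts (log2 fold change 3.03 ± 0.42, SE, adjusted p = 0.000374). *Spp1*, which encodes osteopontin and is made by cholangiocytes and by some macrophages, rose from 44.6 ± 10.1 to 195 ± 50.6 CPM (SD, n = 3), and its log2 fold change was 2.13 ± 0.22 (SE, adjusted p = 0.000209).

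The 2 genes that fell, *Perp* and *Crb3*, were named after their values were seen. *Perp*, a junction protein, was at -0.56 ± 0.13 (SE, adjusted p = 0.00694, edgeR) on the log2 scale and *Crb3*, a polarity protein, at -0.53 ± 0.15 (SE, adjusted p = 0.015). With scaling by library size neither passed (adjusted p = 0.445 and 0.645). The *Crb3* call was also lost with upper-quartile scaling (adjusted p = 0.0557), without control replicate 2 (0.0568) and without g*Spns1*-cKO replicate 3 (0.0689). *Itgb6*, an integrin chain of reactive ducts, was too low to be tested, with no count in control and 8, 6 and 8 counts in g*Spns1*-cKO livers.

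Of the 11 genes for transport and cilia, 9 were tested, 6 rose, none fell and 3 did not pass. *Cftr*, the chloride channel of the duct surface, had 5, 1 and 2 counts in control and 17, 26 and 26 in g*Spns1*-cKO livers (log2 fold change 2.62 ± 0.60, SE, adjusted p = 0.00598, edgeR), and its value was 3.39 without control replicate 1. *Dcdc2a*, a ciliary protein whose human counterpart is mutated in neonatal sclerosing cholangitis, had 42, 39 and 25 against 221, 332 and 192 counts (2.38 ± 0.28, SE, adjusted p = 0.000128). *Slc5a1*, a sodium-glucose transporter, was at 1.48 ± 0.37 (SE, adjusted p = 0.00905) and *Pkhd1*, which encodes fibrocystin of the primary cilium, at 0.92 ± 0.22 (SE, adjusted p = 0.00817).

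Of those that did not pass, *Slc4a2*, the anion exchanger of bicarbonate secretion, was at 0.02 (adjusted p = 0.891, edgeR) and shares 1141 exon bases with the opposite-strand *Fastk*. *Aqp1*, a water channel, was at 0.29 (adjusted p = 0.117) and *Slc10a2*, a bile acid transporter, at -0.75 (adjusted p = 0.161). *Aqp1* passed without g*Spns1*-cKO replicate 2 (0.40, adjusted p = 0.0353) and with scaling by library size (0.73, adjusted p = 0.00169) or the upper quartile (0.41, adjusted p = 0.0328). *Slc10a2* was called lower by DESeq2 (-0.75, adjusted p = 0.0259) and without g*Spns1*-cKO replicate 1 (-1.19, adjusted p = 0.00286). *Sctr*, the secretin receptor, was not tested, with 0, 0 and 1 counts in control and 12, 26 and 6 in g*Spns1*-cKO livers.

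Notch signalling directs biliary fate. Ligands such as JAG1 on one cell bind Notch receptors on the next, which are then cleaved. The freed receptor fragment joins RBPJ to switch on *Hes* and *Hey* genes. Of 16 genes of the pathway, 14 were tested, 5 rose, none fell and 9 did not pass (35.7% higher, against 21.3% of all genes tested). Their median log2 fold change was 0.59, and 12 were called higher with scaling by library size, which moved the median of all genes to 0.457. Among the targets, *Hey1* had 9, 26 and 8 counts in control and 86, 139 and 113 in g*Spns1*-cKO livers (2.55 ± 0.40, SE, adjusted p = 0.000727, edgeR), and was at 3.2 without control replicate 2. *Heyl* was at 1.43 ± 0.32 (SE, adjusted p = 0.00556) and *Hes1*, with 153, 225 and 174 against 332, 690 and 563 counts, at 1.08 ± 0.24 (SE, adjusted p = 0.00548).

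Among ligands, *Dll1* was at 0.81 ± 0.22 (SE, adjusted p = 0.0138, edgeR), a call lost without g*Spns1*-cKO replicate 2 (adjusted p = 0.0506) and replicate 3 (0.0653). *Jag1*, the ligand tied to duct development, had 134, 107 and 109 counts in control and 158, 437 and 207 in g*Spns1*-cKO livers (0.75 ± 0.35, SE, adjusted p = 0.124). Its value was 0.21 (adjusted p = 0.525) without g*Spns1*-cKO replicate 2, the highest of the g*Spns1*-cKO livers, and it passed without replicate 1 (0.99, adjusted p = 0.0294) and with scaling by library size (1.20, adjusted p = 0.0214). Among receptors *Notch2*, the main biliary receptor, was at 0.61 ± 0.14 (SE, adjusted p = 0.00701), while *Notch1*, *Notch3* and *Notch4* did not pass.

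Of 13 genes for signals linked to the ductular reaction, 8 were too low to be tested, 3 rose, 1 fell and 1 did not pass, beside 21.3% higher and 20.5% lower of all genes tested. *Tnfrsf12a*, the receptor Fn14 for the cytokine TWEAK, had 198, 337 and 264 counts in control and 606, 740 and 844 in g*Spns1*-cKO livers (log2 fold change 1.02 ± 0.18, SE, adjusted p = 0.00132, edgeR). *Tnfsf12*, which encodes TWEAK, was at 0.51 ± 0.14 (SE, adjusted p = 0.016), not called without control replicate 1 (adjusted p = 0.0596), and it shares 731 exon bases with the readthrough gene *Tnfsfm13* on the same strand. *Fgfr2*, a receptor for FGF7 and FGF10, was at 0.58 ± 0.14 (SE, adjusted p = 0.00786) and shares 314 exon bases with *Ctbp2*. *Lifr*, a cytokine receptor chain abundant in hepatocytes, fell, with 7163, 7996 and 6213 counts in control and 2803, 3102 and 3401 in g*Spns1*-cKO livers (log2 fold change -1.63 ± 0.11, SE, adjusted p = 7.35e-06).

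Plakins and desmosomal proteins anchor keratin filaments to one another and to cell junctions. Of 11 genes for such partners of keratins, all tested, 3 rose (27.3%, against 21.3% of all genes tested), 1 fell and 7 did not pass, and the median log2 fold change was 0.12. The number that rose was 1 or 2 without any single library, 1 with median-ratio scaling and 7 with scaling by library size. *Plec* (-0.06), *Dsp* (0.16) and *Jup* (0.02), which encode plectin, desmoplakin and plakoglobin, did not pass the test (adjusted p = 0.719, 0.42 and 0.887, edgeR). *Tchp*, which encodes the keratin-binding trichoplein, was at 0.94 ± 0.24 (SE, adjusted p = 0.00987) and was not called without g*Spns1*-cKO replicate 3 (adjusted p = 0.0556).

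*Ppl*, periplakin, at 0.95 ± 0.31 (SE, adjusted p = 0.05, edgeR) and *Eppk1*, epiplakin, at 0.41 ± 0.15 (SE, adjusted p = 0.0493) lay just inside the threshold. *Ppl* was lost without control replicate 1 (adjusted p = 0.127), control replicate 2 (0.135), g*Spns1*-cKO replicate 2 (0.138) and g*Spns1*-cKO replicate 3 (0.136). *Eppk1* was lost in every leave-one-out fit but that without g*Spns1*-cKO replicate 3 (adjusted p between 0.074 and 0.176), and it shares exon sequence with *BC024139*. *Pkp2*, plakophilin 2, was at -0.41 ± 0.11 (SE, adjusted p = 0.0155) and turned to 0.04 with scaling by library size. It was also not called with upper-quartile scaling (adjusted p = 0.068), without control replicate 1 (0.051) and without g*Spns1*-cKO replicate 2 (0.0571).

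The g*Spns1*-cKO livers differed among themselves. Replicate 2 was the highest of the 3 for *Krt7*, *Krt23*, *Sox9*, *Epcam* and *Prom1*, and the lowest for *Krt8*, *Krt18* and, within a narrow range, *Krt19*. Of the 28 genes of the 3 biliary lists called higher, 22 (78.6%) were highest in replicate 2 and 1 (3.57%) was lowest there. Among all 3286 genes called higher, 36% were highest and 34.8% lowest in replicate 2. Of the 7 stellate cell and myofibroblast markers, *Acta2*, *Col1a1*, *Col3a1*, *Lrat* and *Reln* were also lowest in replicate 2, whereas *Des* and *Pdgfrb* were lowest in replicate 1. The endothelial markers *Pecam1*, *Stab2* and *Cdh5* and the macrophage markers *Adgre1* and *Cd68* were lowest in replicate 2 as well. *Kdr*, *Vwf*, *Ptprc*, *Clec4f*, *Itgam* and *Csf1r* of the same lists were not. The targeted gene *Spns1* stood at 30.6 CPM in replicate 2 and at 17.8 CPM in replicates 1 and 3, beside 34.6 to 50.7 CPM in control livers. This is a description of 3 livers, with no test.

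**Figure D3:**
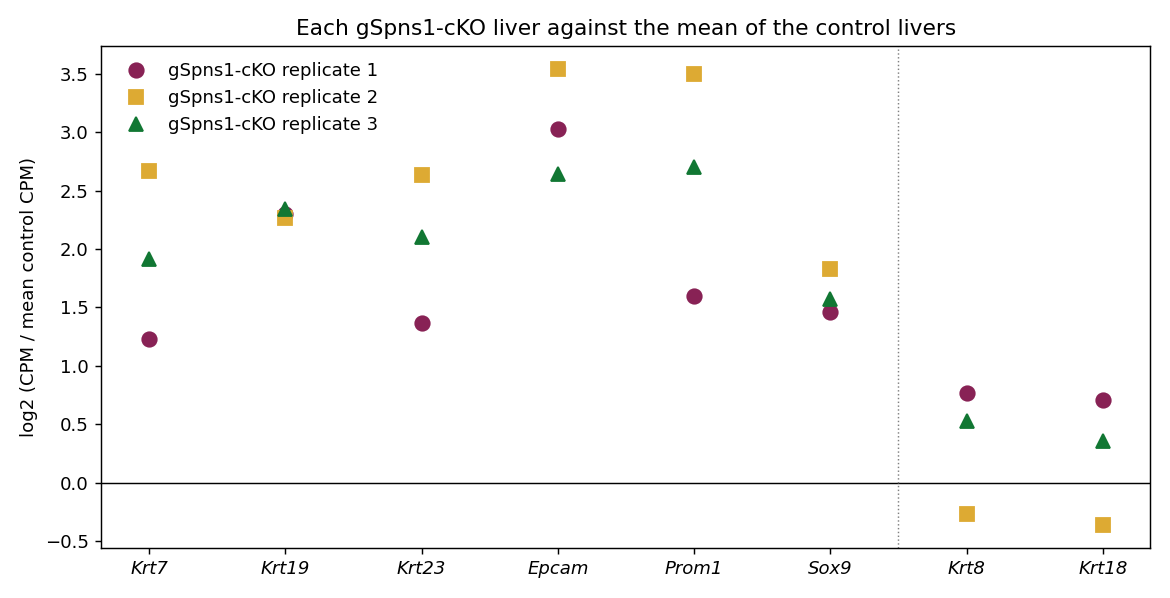
Level of each member in each g*Spns1*-cKO liver divided by the mean level of the 3 control livers, as log2 of the CPM ratio, with 1 symbol per liver. Replicate 2 is highest for 5 of the 6 members left of the dotted line, which were called higher, while *Krt8* and *Krt18*, right of it, are below the control mean there.

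Many markers of other cells differed between the groups, and their part in the levels of the members was not tested. Summed hepatocyte markers ranged from 104000 to 115000 CPM in control and from 63400 to 74600 CPM in g*Spns1*-cKO livers. *Alb* alone averaged 69300 and 41900 CPM. Of the 7 tested, 3 were lower and none higher, although none of these 3 passed with scaling by library size. *Ttr* (-0.47, adjusted p = 0.0545, edgeR), *Hnf4a* (-0.42, 0.0666), *Ahsg* (-0.01, 0.977) and *Cps1* (0.36, 0.1) did not pass. *Cps1* was called higher with scaling by library size (0.80, adjusted p = 0.00208) or the upper quartile (0.49, adjusted p = 0.0367). DESeq2 called 5 of the markers lower and *Cps1* higher. Of 8 planned hepatocyte markers, transferrin was searched as *Tf* and is missing from the sum and counts above. Under the symbol *Trf* it averaged 1946 CPM in control and 2448 CPM in g*Spns1*-cKO livers (0.33, adjusted p = 0.1685, edgeR). Macrophage and leukocyte markers stood at 92.3 to 136 against 268 to 375 CPM (6 of 6 higher). Stellate cell markers stood at 83 to 105 against 167 to 235 CPM (5 of 7 higher). Endothelial markers stood at 92 to 101 against 161 to 187 CPM (4 of 5 higher). Beside these counts, 21.3% of all genes tested were called higher and 20.5% lower. The stellate count was 3 of 7 without control replicate 3 or g*Spns1*-cKO replicate 3, and 7 of 7 without g*Spns1*-cKO replicate 2. *Sox9* and *Spp1* can also be expressed by stellate cells and macrophages, respectively.

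Mesothelial cells, which cover the liver and share keratins with duct cells, had summed markers at 5.89 to 19.9 CPM in control and 21 to 27.4 CPM in g*Spns1*-cKO livers. Of these 6 genes 2 were higher (33.3%, against 21.3% of all genes tested). These were *Wt1* at 3.29 (adjusted p = 0.00173, edgeR) and *Gpm6a* at 1.10 (adjusted p = 0.0426). The *Gpm6a* call was lost in each leave-one-out fit (adjusted p between 0.0599 and 0.133) but that without control replicate 2, where it was 1.69. Without control replicate 2, 5 of the 6 were higher, and 1 was without any other single library. With all libraries *Msln* (0.74, adjusted p = 0.225) and *Upk3b* (0.32, adjusted p = 0.615) did not pass. Of 7 pancreatic acinar genes, *Prss2*, *Cpa1*, *Ctrb1* and *Amy2b* had no count in any library, *Pnlip* had 2 counts in 1 control liver, and *Cela1* (-1.62, adjusted p = 3.98e-05, edgeR) and *Cela2a* (-0.82, adjusted p = 0.247) were tested. Their sum stood at 25.5 to 37.8 CPM in control and 9.85 to 10.8 CPM in g*Spns1*-cKO livers.

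Of 6 intestinal genes, *Cdx1*, *Cdx2* and *Muc13* had no count in any library and *Cdh17* had 0, 5 and 1 counts in g*Spns1*-cKO livers. *Vil1*, which encodes the microvillus protein villin, had 5, 1 and 0 counts in control and 23, 20 and 24 in g*Spns1*-cKO livers (2.99, adjusted p = 0.00838, edgeR), and was at 4.78 without control replicate 1. *Lgals4* had 670, 895 and 823 against 190, 660 and 346 counts (-1.45, adjusted p = 0.0491). The *Lgals4* call was lost without each single control liver (adjusted p between 0.0839 and 0.114), without g*Spns1*-cKO replicate 3 (0.161) and with scaling by library size (0.109) or the upper quartile (0.0695). The intestinal sum stood at 24 to 32.5 CPM in control and 5.92 to 17.9 CPM in g*Spns1*-cKO livers, and the part of these genes was not tested.

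Across the 6 libraries, the genes whose log2 CPM was most like the mean standardised profile of the members were *Lbh* (Pearson r = 0.999), *Evc2* (0.9989), *Srpx2* (0.9988), *Prkar2b* (0.9987) and *Speg* (0.9986). Their log2 fold changes were 1.78, 3.48, 1.34, 1.97 and 1.97. With 12909 genes compared over 6 libraries in 2 groups, 1838 genes (14.2%) had r over 0.9, so the order is given as a description without a test.

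**Figure D4:**
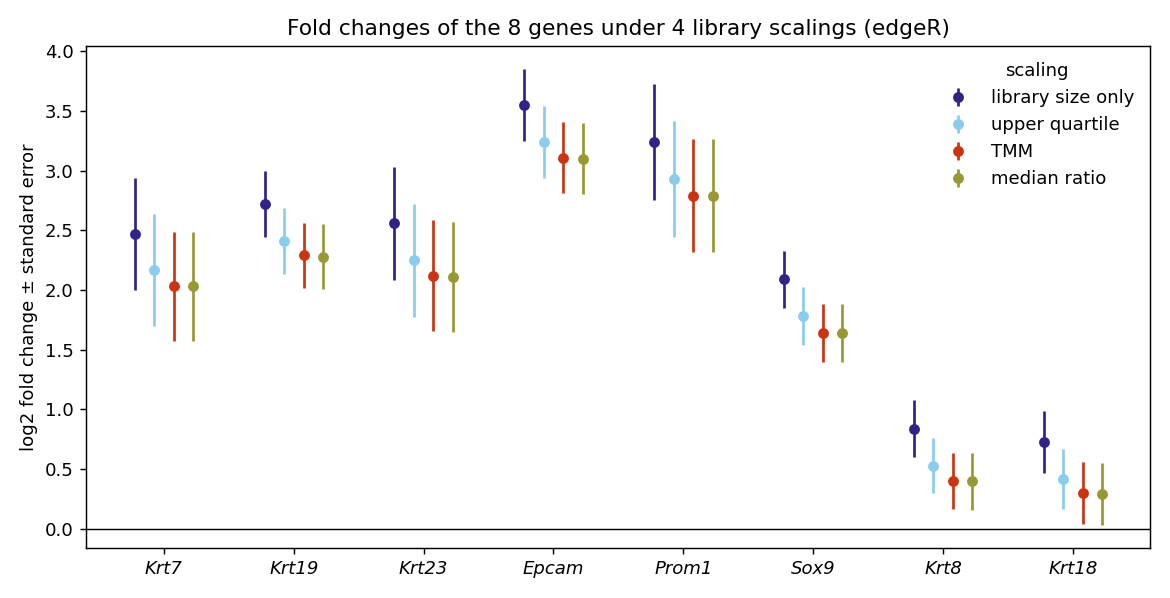
Log2 fold change of each member ± standard error in edgeR under library size alone, upper-quartile, TMM and median-ratio scaling. All members lie above 0 under each scaling, and *Krt8* and *Krt18* pass an adjusted p of 0.05 with library size alone.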

How the data were processed

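RNA-Seq of 6 mouse livers, 3 control and 3 g*Spns1*-cKO, was analysed, with groups taken from the sample labels. The authors deposited a table of raw counts per gene for each library, which per the labels were made with fastp, HISAT2 2.0.5 and featureCounts 1.5.0-p3 on mm10. Strand setting and annotation release are not given in the sources used here. The table also holds FPKM, group means and the authors' own fold changes and p-values, which were not used. Gene lengths are those deposited. Of the genes listed, 54409 were found in GENCODE M21, 98.3% with the same coordinates.

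Counts were filtered with filterByExpr, scaled by TMM and tested with edgeR 4.0.16 (quasi-likelihood, robust, R 4.3.3), with Benjamini-Hochberg adjustment over 15449 genes and a threshold of 0.05. The scripts were tested on simulated data. DESeq2 1.42.0, limma-voom (limma 3.58.1), other scalings and filters, a threshold of 0.01, a replicate block and leaving out each mouse were alternatives. Nothing says whether mice came from separate litters. Replicates differed by more than sampling noise (chi-square per gene 42.5 to 126). Floors cover counting error only.

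Members and gene lists were chosen with earlier results of these data known. The named genes are the members, every called gene of the transcription factor and Notch lists, up to 4 called genes with the largest change in each other list, those not passing where the text needs them, *Spns1*, genes of the cell type marker lists (*Spp1* among the biliary ones) and the 5 genes most like the members. Some results are not reported here.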

Additional observations from a re-analysis of the deposited data

How the results depend on the processing

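The 6 members called higher kept that call with DESeq2, limma-voom, every scaling, the replicate block and each leave-one-out fit, except that *Krt23* was left out by the filter of at least 10 counts in every library, which called 5. Leaving out 1 library gave between 6 and 8 members called higher, a median member log2 fold change between 1.68 and 2.30, and *Spns1* between -1.18 and -0.68. With library size alone the median of the members was 2.51, the median of all genes 0.457, *Spns1* -0.43 (adjusted p = 0.213), and genes called were 7289 higher and 970 lower instead of 3286 and 3166. Upper-quartile scaling gave *Spns1* -0.74 (adjusted p = 0.0635). A threshold of 0.01 called 1983 genes higher and 1907 lower. Genes of the other lists called higher were 39, and 25 with at least 10 counts in every library, where fewer genes are tested. Those called lower were 5, and 1 with library size alone, 2 with upper-quartile scaling, 2 at a threshold of 0.01 and between 3 and 5 without 1 library. Unless named, the cause was not tested. Correlations of profiles centred on their group mean were 0.0421, 0.0317 and -0.0266 between same-numbered livers and -0.0812 to 0.0562 between the others. With 3 livers in each group, these values cannot decide whether replicate numbers paired mice. With the replicate block 6 members, 3084 genes higher and 3016 lower were called, and *Spns1* was at -0.90 (adjusted p = 0.000679, edgeR). Depth limits the genes with few control counts, whose fitted sizes depend on the prior count.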
